A study of Homo sapiens with 2 samples.

Results

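The genes described here, 10 in number, act at the cell surface and in the first intracellular steps of Wnt signalling, and were compared between libraries of A549 cells. They are the secreted proteins DKK1 and DKK3, the Dickkopf receptor KREMEN1, the co-receptors LRP5 and LRP6, the Frizzled receptors FZD2 and FZD6, the scaffolds AXIN1 and AXIN2, and beta-catenin (CTNNB1). They were found by an exact match of the gene symbol, each on 1 line of the deposited table, so 10 of 10 were present among 12917 named genes, and none was absent. The set was chosen by role in the pathway with the RPKM values of these same libraries in view, the lower KREMEN1 value among them, so all differences are given as descriptions.

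A549 is an established human lung adenocarcinoma line. RNA-seq compared 1 library labelled wild type with 1 library labelled MYOCD knockdown, and how the transcriptome differs between them is the question the series states. MYOCD encodes myocardin, a coactivator of serum response factor. Both libraries carry a label of 72 h of doxycycline, but the series text describes the wild type cells as not treated, so an effect of doxycycline cannot be told apart from that of the knockdown if only 1 library received it. The title of the knockdown sample uses a notation for loss of both alleles and its genotype label says knockdown. The sources used here do not say how the knockdown was made or whether it is 1 clone. With 1 library per group there is no replicate error and no test, and a difference between these libraries need not be one between the conditions. Since RNA was taken from whole cultures, fewer cells making a message and less of it per cell cannot be told apart.

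Wnt proteins bind a Frizzled receptor together with LRP5 or LRP6. This recruits AXIN and stops the destruction complex from marking beta-catenin for breakdown, and beta-catenin then joins TCF and LEF factors on target genes. DKK1 binds LRP5 and LRP6 and blocks this step, and KREMEN proteins bind DKK1 and can help to remove the co-receptors from the cell surface. AXIN2 and DKK1 are themselves known targets of beta-catenin, which makes both feedback inhibitors.

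Values are RPKM, that is, reads scaled by transcript length and by mapped reads, so levels can be compared between genes. In each pair of values the wild type library comes before the knockdown library. Without counts the depth of each library is unknown, and counting error could not be estimated. Over all 14952 loci the median was 9.06 RPKM for wild type and 8.94 RPKM for knockdown. MYOCD itself had 0.881 RPKM in wild type cells and 0.40 RPKM in knockdown cells, 45.5% of the wild type level, close to the lowest values in the table. The epithelial keratins KRT8 (1545 and 1521 RPKM) and KRT18 (1776 and 1683 RPKM) were high in both libraries, and CDH1 had 23.8 and 22.5 RPKM. The other measured genes of the lung epithelial list were low: KRT19 had 7.70 and 7.69 RPKM, EPCAM had 2.24 and 2.15 RPKM and NAPSA had 1.27 and 0.771 RPKM. NKX2-1, SFTPB and SFTPC, markers of alveolar cells, were not among the values used here. Of listed markers of other cell types, 2 of 8 for fibroblasts (COL1A1 and THY1, summed 4.33 and 3.91 RPKM), 0 of 5 for endothelium and 3 of 6 for leukocytes (summed 4.27 and 5.06 RPKM, most of it CD14) were in the table.

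KREMEN1 was lower in the knockdown library by more than 2-fold, DKK1 was lower by nearly 1.5-fold, and the remaining 8 genes differed by less. A difference is the log2 ratio of knockdown to wild type after adding 1 to each RPKM. In the knockdown library 8 genes were lower and 2, FZD2 and FZD6, were higher, and the median difference was -0.25, against 0.01 over the 12140 named genes whose mean RPKM was 1 or more. All 10 genes passed that minimum. Only FZD2 changed sign under another scaling, so that 9 were then lower. Of the 10 genes, 1 was at least 2-fold lower and 0 were at least 2-fold higher. Without rescaling, these counts were also 1 and 0 at 1.5-fold. DKK1 too was past 1.5-fold lower when the libraries were scaled to equal upper quartiles (-0.61) or equal summed RPKM (-0.77). Over all named genes, 0.725% were at least 2-fold lower and 0.643% at least 2-fold higher, 3.2% were at least 1.5-fold lower and 1.65% at least 1.5-fold higher, and 47.9% were lower by any amount. Among 10038 protein-coding genes at loci of a single gene holding no microRNA, small nucleolar or small Cajal body RNA gene, 0.359% were at least 2-fold lower, 0.11% at least 2-fold higher, 2.77% at least 1.5-fold lower, 0.926% at least 1.5-fold higher and 47.5% lower by any amount. These 10038 genes are called the coding genes below. The central 95% of their differences ran from -0.60 to 0.47, and 9 of the 10 Wnt genes lay inside it.

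**Figure D1:**
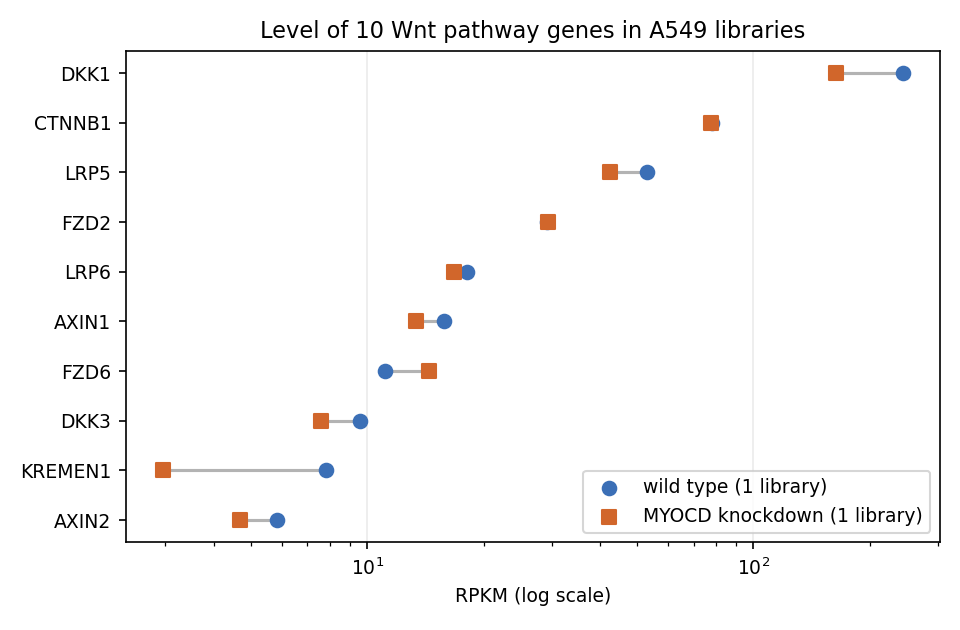
Level of each of the 10 genes in RPKM on a log scale, with the wild type library as circles, the MYOCD knockdown library as squares and a grey line joining them; each point is 1 library and there are no error bars. KREMEN1 has the longest line (7.81 and 2.96 RPKM), DKK1 is the highest in both libraries (243.5 and 164 RPKM), and the points of CTNNB1 and FZD2 lie on each other.

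KREMEN1 encodes a transmembrane receptor with a kringle domain that binds Dickkopf proteins. Its gene spans 29073078 to 29168333 of chromosome 22, plus strand, in GENCODE release 29 on GRCh38. KREMEN1 had 7.81 RPKM in wild type cells and 2.96 RPKM in knockdown cells, which is 37.9% of the wild type level. The log2 difference was -1.15, at rank 64 from the lowest of the 12140 named genes and the 18th lowest of the 10038 coding genes. Among 3287 other coding genes with a mean within 2-fold of its own (2.69 to 10.8 RPKM), 5 were as low or lower, or 0.152%, and 13 were at least 2-fold lower. A larger pseudocount of 5 shrank the difference to -0.69, inside 2-fold.

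**Figure D2:**
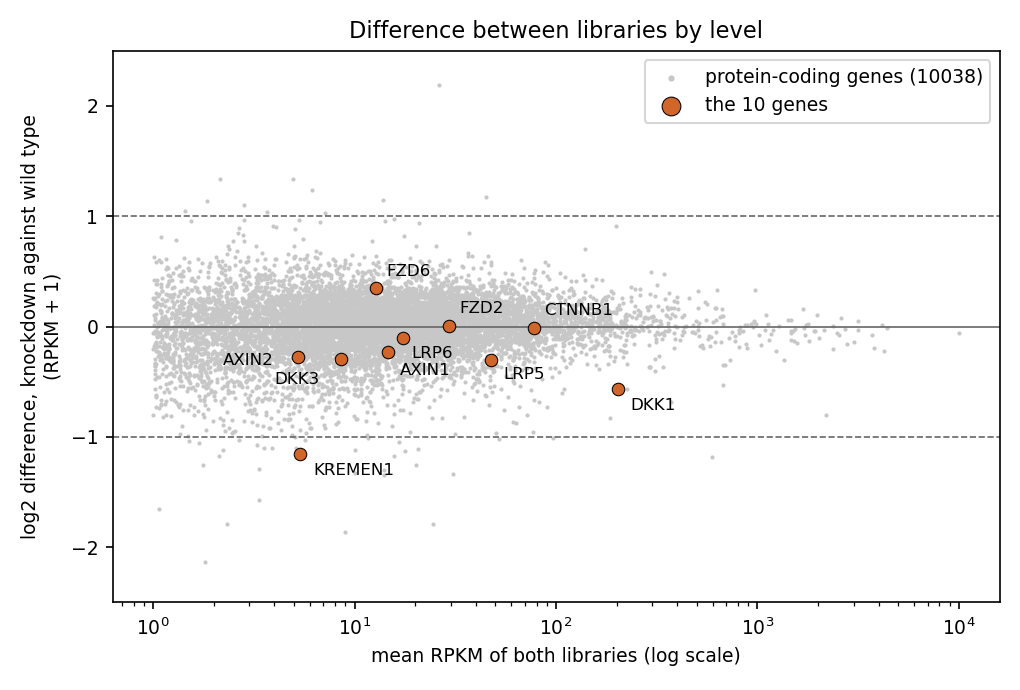
Log2 difference between the libraries (RPKM + 1) against the mean RPKM of both on a log scale, with the 10038 coding genes in grey and the 10 Wnt genes in orange; dashed lines mark 2-fold. KREMEN1 (-1.15) lies below the lower dashed line, and DKK1 (-0.57) lies at the lower edge of the genes of its level.

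The 3′ UTR of KREMEN1 carries the 7-base word AATATGC at 2 places whose starts lie 11 bases apart. The word is looked at because it had been picked as the most over-represented one in the UTRs of genes that were lower in the knockdown library, KREMEN1 among them, so its presence there supports nothing. What is shown here is which of the 10 genes hold it. The sequences below are 30-base windows of GENCODE release 29 transcripts on GRCh38, written 5′ to 3′ on the transcript's strand, with the word in capitals. They come from transcript KREMEN1-202 (chr22:29146603-29146632, plus strand), DKK3-202 (chr11:11963290-11963319, minus strand) and CTNNB1-201 (chr3:41240207-41240236, plus strand).
KREMEN1: tttgtaAATATGCtcttAATATGCaacttt
DKK3: aacatggttgtAATATGCgactgcgaacac
CTNNB1: gtttcctttttAATATGCttaaaataagca

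Of the longest annotated 3′ UTR of each gene, those of 3 of the 10 genes held the word, as did 1185 of 10167 measured protein-coding genes (11.7%). Among 1809 genes with a UTR within 1.5-fold of the length of that of KREMEN1 (4708 bases), the share was 25.1%. The 3 genes had different values: KREMEN1 was at 37.9% of the wild type level, DKK3, with 1 copy, at 79.5%, and CTNNB1, with 1 copy, at 99.4%. LRP6 has the longest UTR of the 10 (5101 bases) and no copy. A UTR with at least 2 copies was found for 192 genes (1.89%), and in 2 of them, KREMEN1 and RNF111, copies started 11 bases apart or closer. RNF111, an E3 ubiquitin ligase, had 13.0 and 11.8 RPKM, a log2 difference of -0.14. Over all genes that held the word the median difference was -0.03, against 0.02 for those that did not. Because the word was picked from genes lower in this same library, a lower median among its holders follows in part from that choice. The 2 groups were also not matched for UTR length, so this contrast supports nothing. Of 2545 mature human microRNAs in the RefSeq table, 0 had bases 2 to 8 complementary to the word. The pair of copies lies in 1 of the 3 complete coding transcripts annotated for KREMEN1, and the others end elsewhere. RPKM per locus does not show which of these transcripts was present.

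The KREMEN1 locus also holds RNU6-810P, a U6 pseudogene of 107 bases on the same strand, and AL021393.1, an antisense gene. Neither was listed by name, whether counting used strand is not stated in the labels, and their part in the KREMEN1 value was not tested. Of the coding genes, 3 lay nearest to KREMEN1 by their values in the 2 libraries (Euclidean distance of log2(RPKM + 1)). They were CERS4, a ceramide synthase (7.56 and 2.88 RPKM, distance 0.05), HIST1H4H, a histone H4 gene whose reads may be shared with near-identical copies (7.33 and 2.89 RPKM, distance 0.08), and LRRC4B (7.08 and 3.03 RPKM, distance 0.13). With only 2 libraries, such likeness says only that the values are close.

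The measured genes on either side of KREMEN1 did not show its difference. On chromosome 22, ZNRF3 lies upstream on the same strand and ends 15.6 kb before KREMEN1. It encodes a ubiquitin ligase that removes Frizzled receptors and is thus another Wnt inhibitor. It had 9.61 and 7.95 RPKM, a log2 difference of -0.25. Downstream, RHBDD3 had 8.78 and 11.6 RPKM (0.37), EWSR1 had 84.4 and 86.0 RPKM (0.03), GAS2L1 had 14.9 and 11.8 RPKM (-0.31) and AP1B1 had 16.9 and 19.1 RPKM (0.17). All 5 measured protein-coding neighbours within 250 kb of KREMEN1 were inside 1.5-fold. So were most genes anywhere, as 3.2% of all named genes were at least 1.5-fold lower and 1.65% at least 1.5-fold higher. C22orf31, EMID1 and RASL10A, which lie in the same window, were not among the values used here.

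**Figure D3:**
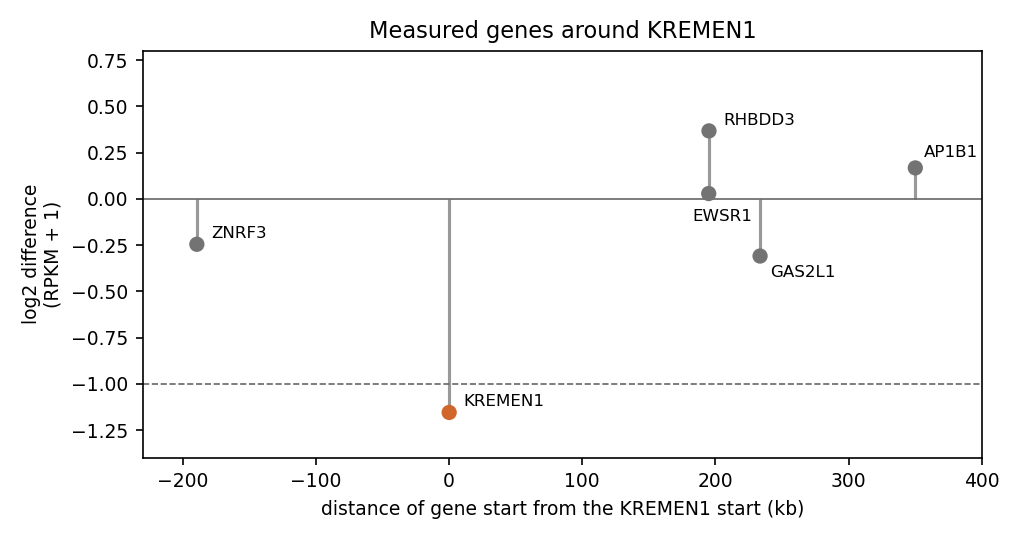
Log2 difference (RPKM + 1) of KREMEN1, in orange, and of the 5 measured protein-coding genes within 250 kb of it, in grey, against the distance of each gene's start from the KREMEN1 start in kb; the dashed line marks 2-fold lower. KREMEN1 is at -1.15 and its neighbours lie between -0.31 and 0.37.

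KREMEN2, the other Kremen receptor, was lower too but by less, with 8.16 and 5.75 RPKM and a log2 difference of -0.44. The summed level of both Kremen genes was 16.0 RPKM in wild type cells and 8.71 RPKM in knockdown cells. KREMEN1 made up 48.9% and 34.0% of that sum. In the knockdown library KREMEN2 was thus the higher of the pair by a wider margin.

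DKK1, the secreted antagonist that binds LRP5 and LRP6, was the most abundant of the 10 messages. Its gene spans 52314296 to 52318042 of chromosome 10, plus strand (GRCh38). DKK1 had 243.5 RPKM in wild type cells and 164 RPKM in knockdown cells, 67.3% of the wild type level. Without rescaling, the log2 difference of -0.57 was just inside 1.5-fold, and 3.01% of coding genes were lower still. The difference was past 1.5-fold with equal upper quartiles (-0.61) and with equal summed RPKM (-0.77). Among 477 other coding genes with a mean of 102 to 407 RPKM, 3 were as low or lower (0.629%) and 2 were higher by as much. PRKG1-AS1, an antisense gene, overlaps the start of DKK1 and was not listed by name.

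The RefSeq promoter table (GRCh38.p14, from 250 bases before to 50 after the start) held DKK1, CTNNB1, LRP5 and AXIN1. Each window was searched on both strands for CTTTGAT and CTTTGAA, core words of TCF and LEF sites, and for the CArG box, the element bound by serum response factor. Of these 4 genes, DKK1 held CTTTGAA, 95 bases before its start, and no other match was found. CTTTGAA occurs in 4.43% of all 35116 windows, CTTTGAT in 2.62% and the CArG box in 1.29%, and a match is a description of letters and not a site. The DKK1 window is shown because it is the one match among the 4 genes, with the word in capitals, 5′ to 3′ on the plus strand at chr10:52314175-52314203.
DKK1: ccctcccagcgCTTTGAAatcccatcccg

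DKK3 is a divergent Dickkopf relative whose role in Wnt signalling is less settled than that of DKK1. On the minus strand of chromosome 11 from 11963106 to 12009769, it had 9.57 and 7.61 RPKM, a log2 difference of -0.30, and 11.3% of coding genes were lower. DKK1 was 25.5 times as high as DKK3 in wild type cells and 21.6 times in knockdown cells. DKKL1, another relative, was near the floor at 1.46 and 1.33 RPKM, and DKK2 and DKK4 were not among the values used here. The difference of DKKL1 was -0.08, well inside the 0.22 that is a robust standard deviation of the coding genes.

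Of the co-receptors, LRP5 was lower and LRP6 differed little. LRP5 (chromosome 11, 68312609 to 68449275, plus strand) had 52.9 and 42.6 RPKM, a log2 difference of -0.30, with 10.8% of coding genes lower. LRP6 (chromosome 12, 12116025 to 12267012, minus strand) had 18.1 and 16.8 RPKM, a difference of -0.10, with 30.6% lower. BCL2L14, a protein-coding gene on the opposite strand (12049844 to 12211084), overlaps LRP6 and was not listed by name. Its part in the LRP6 value was not tested. LRP5 was 2.92 times as high as LRP6 in wild type cells and 2.53 times in knockdown cells. Their summed level was 70.9 RPKM and 59.4 RPKM.

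Set against each other, the parts of the DKK1 step differed by unequal amounts. For each unit of LRP5 and LRP6 message there were 3.43 units of DKK1 in wild type cells and 2.76 in knockdown cells. For each unit of KREMEN1 and KREMEN2 message there were 4.44 units of LRP5 and LRP6 in wild type cells and 6.82 in knockdown cells. DKK1 exceeded KREMEN1 31.2 times in wild type cells and 55.4 times in knockdown cells. A ratio within a library does not depend on how that library is scaled, and it shows unequal difference, not which gene moved.

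FZD6 was the one gene of the 10 that was higher in the knockdown library under every scaling tried. It encodes a Frizzled receptor known mainly for planar cell polarity, and had 11.1 and 14.4 RPKM, a log2 difference of 0.35, with 5.81% of coding genes higher. It lies on chromosome 8 from 103298433 to 103332866 (plus strand), and BAALC-AS1, an antisense gene, overlaps its start. FZD2, on chromosome 17 from 44557459 to 44559570 (plus strand), had 29.2 and 29.4 RPKM, a difference of 0.01 that was below 0 under the 3 other scalings, down to -0.18. FZD2 was the highest of the Frizzled genes in both libraries, with 33.9% and 32.2% of their summed RPKM. FZD6 made up 12.9% and 15.8%.

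Over all Frizzled receptors, 9 of 10 were measured, 4 lower and 5 higher, with a median difference of 0.01 and 0 past 1.5-fold. Of all named genes, 3.2% were at least 1.5-fold lower and 1.65% higher, so 0 among 9 is near those shares. Besides FZD6, the highest were FZD4 (13.8 and 16.4 RPKM) and FZD5 (4.46 and 5.34 RPKM), and the lowest were FZD9 (2.10 and 1.37 RPKM), FZD1 (4.28 and 3.43 RPKM) and FZD8 (7.04 and 6.78 RPKM). The summed Frizzled level was 86.4 RPKM in wild type cells and 91.5 RPKM in knockdown cells. FZD6 moved from the seventh to the sixth place in the order of the 10 levels, above AXIN1. Apart from that, and from KREMEN1 changing places with AXIN2 for last, the order was the same: DKK1, CTNNB1, LRP5, FZD2 and LRP6 led, in that order, and DKK3 was eighth in both.

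The Axin scaffolds, which hold the destruction complex together, were lower by similar amounts. AXIN1 (chromosome 16, 287440 to 352673, minus strand) had 15.8 and 13.3 RPKM, a difference of -0.23, with 16.0% of coding genes lower. AXIN2 (chromosome 17, 65528563 to 65561647, minus strand), the Wnt-induced scaffold, had 5.84 and 4.67 RPKM, a difference of -0.27, with 13.0% lower. AXIN1 was 2.70 and 2.86 times as high as AXIN2. AC004805.1, annotated as protein-coding on the same strand, overlaps AXIN2 and was not listed by name.

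Beta-catenin message was nearly equal in both libraries. CTNNB1 (chromosome 3, 41194741 to 41260096, plus strand) had 78.0 and 77.5 RPKM, a log2 difference of -0.01, close to the median of all genes. It was the second highest of the 10 messages. ULK4 overlaps its 3′ end on the opposite strand. Messenger levels say nothing of beta-catenin protein, which the destruction complex controls after translation.

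The other genes of the pathway were taken from 11 lists drawn up by role, with earlier results of these data known, so their counts are descriptions. The lists hold 142 genes in all, of which 98 had a mean of 1 RPKM or more. Leaving out the 10 genes above, 88 remained, with 47 lower, 41 higher and a median of -0.01. Of these 88, 0 were past 2-fold at a pseudocount of 1 without rescaling. That depends on both choices: TLE2, a corepressor given below, was past 2-fold lower with a pseudocount of 0.1 (-1.18), with equal summed RPKM (-1.13) and with equal upper quartiles (-1.01). FRAT1 (-1.16) and CDH2 (1.11) also passed with a pseudocount of 0.1, and NKD2 (-1.01) with equal sums. At 1.5-fold without rescaling, 5 were lower (5.68%, against 3.2% over all named genes) and 6 were higher (6.82%, against 1.65%). These counts, and the 1.5-fold counts of single lists, were not recomputed under other scalings. Equal summed RPKM multiplies each knockdown value by 0.8712, which can only add to the lower count and take from the higher. The shares of all named genes would shift the same way. Scaling the libraries to equal summed RPKM shifted the median of all genes from 0.01 to -0.17 and put every list's median below 0, so list medians are read beside that of all genes.

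**Figure D4:**
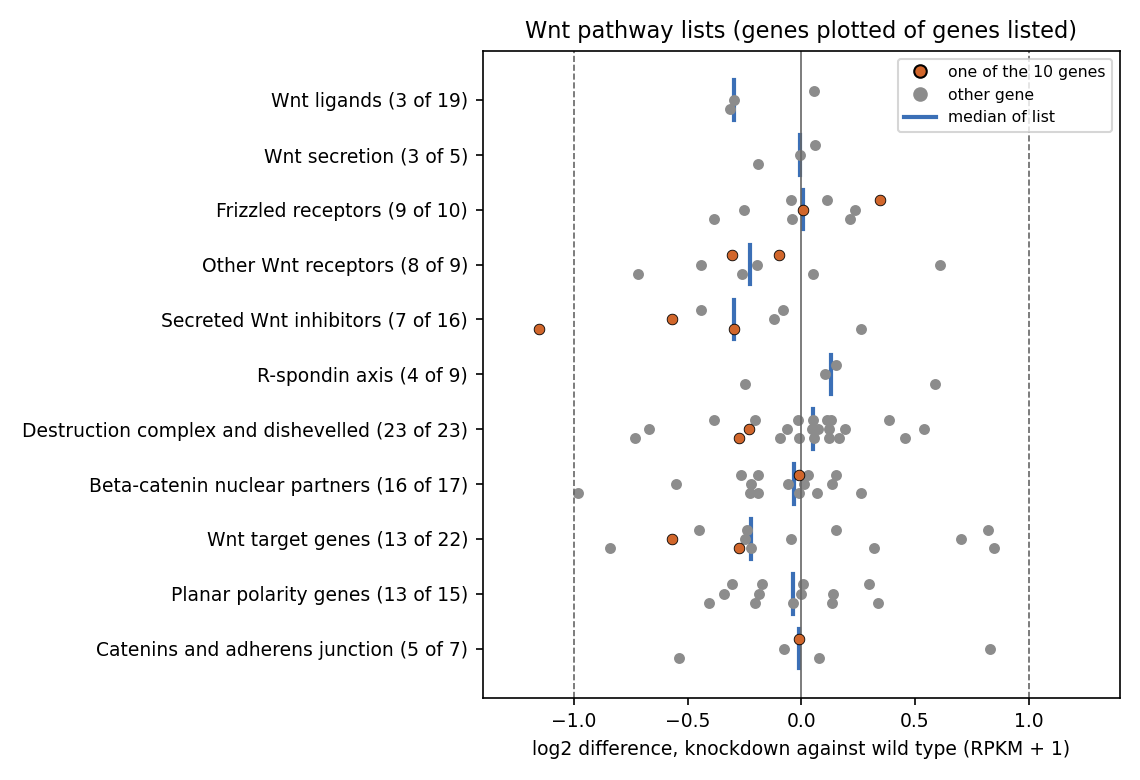
Log2 difference (RPKM + 1) of each gene whose mean was 1 RPKM or more in 11 Wnt pathway lists, 1 row per list with the number of genes plotted of those listed; orange points are the 10 genes, grey points other genes, blue bars the list medians and dashed lines 2-fold. At this pseudocount and without rescaling, KREMEN1 (-1.15) is the one point past a dashed line, with TLE2 (-0.98) just inside it, and list medians run from -0.30 to 0.13.

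Secreted inhibitors and Kremen receptors had a median of -0.30 over 7 measured of 16 listed, with 6 lower and 1 higher. This list holds DKK1, DKK3 and KREMEN1, so it overlaps with the genes whose values were known when the 10 were chosen. SFRP1, a secreted Frizzled-like decoy, was the higher one at 12.1 and 14.7 RPKM, and SFRP4 had 1.71 and 1.5 RPKM.

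Of 19 Wnt ligands, 3 had a mean of 1 RPKM or more, with a median of -0.30. WNT7B, a ligand of lung epithelium, held most of the ligand message, with 78.9 and 64.0 RPKM, or 86.8% and 88.1% of the summed ligand RPKM. WNT10B had 2.24 and 1.61 RPKM and WNT3 had 4.92 and 5.15 RPKM. WNT5B, WNT6, WNT9A and WNT11 had means under 1 RPKM, and each was above its knockdown value in the wild type library. The higher value of every locus in the table was at least 0.652 RPKM, so genes this low appear only where 1 library is above that level. For ligand secretion, PORCN, which attaches the lipid to Wnt proteins, had 8.08 and 6.95 RPKM. WLS, which carries Wnts to the surface, had 5.32 and 5.60 RPKM, and TIKI1 (listed as C2orf89), a protease that trims Wnts, had 1.91 and 1.89 RPKM.

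R-spondins strengthen Wnt signals by drawing ZNRF3 and RNF43 off the Frizzled receptors, through LGR receptors. RSPO3 was higher in the knockdown library, with 69.9 and 105 RPKM and a log2 difference of 0.59, just past 1.5-fold without rescaling. Its receptor LGR4 had 80.7 and 86.9 RPKM. RNF43 had 6.54 and 7.38 RPKM, while ZNRF3, given above as the neighbour of KREMEN1, was lower. Of 9 genes in this list 4 were measured, 1 lower and 3 higher.

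Among 8 measured of 9 other receptors and co-receptors, LRP5 and LRP6 included, 6 were lower and 2 higher, with a median of -0.23. PTK7, a receptor-like pseudokinase of planar polarity, had 5.59 and 3.0 RPKM (-0.72), and LRP1, an endocytic LDL receptor relative, had 14.4 and 10.3 RPKM (-0.44). ROR1, a receptor for WNT5A, was higher at 3.02 and 5.12 RPKM (0.61), and RYK had 21.2 and 22.0 RPKM. MESD (listed as MESDC2), the chaperone that folds LRP5 and LRP6, had 30.8 and 25.5 RPKM (-0.26). PTK7 and MESD also hold AATATGC in their 3′ UTRs. Of 87 other pathway genes with an annotated UTR, 12 hold it, 7 of them lower and 5 higher. The 5 higher ones were FZD3, CSNK1G3, BTRC, PYGO1 and ROCK2. Among all measured protein-coding genes 11.7% hold the word, and 47.9% of all named genes were lower by any amount, so these counts single out nothing.

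All 23 listed genes of the destruction complex and of the dishevelled proteins were measured, 10 lower and 13 higher, with a median of 0.05. The lowest were FRAT1 (2.23 and 0.945 RPKM, -0.73) and FRAT2 (5.58 and 3.14 RPKM, -0.67), a pair of GSK3-binding proteins that oppose the complex, and DVL2 (25.8 and 19.6 RPKM, -0.38). The highest were AMER1 (listed as FAM123B), which brings AXIN to the membrane, at 1.76 and 3.01 RPKM (0.54), the casein kinase CSNK1G1 at 9.04 and 12.8 RPKM (0.46) and the kinase GSK3B at 12.5 and 16.6 RPKM (0.39). The tumour suppressor APC had 3.67 and 4.06 RPKM.

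Of 17 nuclear partners of beta-catenin, CTNNB1 included, 16 were measured, 10 lower and 6 higher, with a median of -0.03. The Groucho-type corepressors TLE2 (6.85 and 2.97 RPKM, -0.98) and TLE3 (8.84 and 5.72 RPKM, -0.55) were the lowest, and TLE2 was the lowest of all the 88 genes. TLE1 had 27.0 and 27.6 RPKM and TLE4 had 10.0 and 9.59 RPKM, so these corepressors differed by unequal amounts. TCF7L2, the most abundant TCF factor here, had 13.3 and 13.5 RPKM, and TCF7L1 had 4.70 and 3.75 RPKM. The highest were PYGO1 (4.82 and 5.99 RPKM), BCL9L (31.8 and 35.5 RPKM) and CREBBP (7.04 and 7.83 RPKM).

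Known target genes of beta-catenin went both ways, with 8 lower and 5 higher among 13 measured of 22, and a median of -0.22. NKD2, a feedback inhibitor that binds dishevelled, had 13.3 and 6.97 RPKM (-0.84). Of the other measured feedback inhibitors in the list, AXIN2, DKK1 and ZNRF3 were lower and RNF43 was slightly higher (0.15). The RNF43 difference was smaller in size than the log2 factor for equal summed RPKM (-0.1990). NKD1, with a mean under 1 RPKM and so not counted, had 1.14 and 0.738 RPKM. BMP4 had 14.6 and 10.5 RPKM (-0.45) and MYC had 74.5 and 72.1 RPKM. Past 1.5-fold without rescaling, 1 of the 13 was lower, NKD2, and 3 were higher, against 3.2% and 1.65% of all named genes. These counts were not recomputed under other scalings, but DKK1 was also past 1.5-fold lower with equal summed RPKM (-0.77). That scaling reduces every knockdown value, so the higher differences become smaller under it. The 3 higher ones without rescaling were FOSL1 (26.2 and 47.9 RPKM, 0.85) and JUN (12.4 and 22.7 RPKM, 0.82), both subunits of AP-1, and the cyclin CCND1 (106 and 173 RPKM, 0.70). These 3 also respond to growth factor signals, and which input set their levels was not tested.

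Planar polarity genes had a median of -0.03 over 13 measured of 15, with 8 lower, 5 higher and 0 past 1.5-fold. That 0 is near the shares of all named genes at least 1.5-fold lower (3.2%) or higher (1.65%). CELSR2, an atypical cadherin, had 7.17 and 5.17 RPKM (-0.41), RAC1 had 253 and 199.5 RPKM (-0.34) and VANGL2 had 2.03 and 1.45 RPKM (-0.31). PRICKLE2 had 2.07 and 2.88 RPKM (0.34), VANGL1 had 6.96 and 8.77 RPKM (0.30) and ROCK2 had 23.0 and 25.5 RPKM (0.14).

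At cell junctions, where beta-catenin also binds cadherins, JUP (gamma-catenin), a close relative of beta-catenin, was lower at 78.6 and 53.9 RPKM (-0.54). JUP and CTNNB1 had about equal levels in wild type cells, and CTNNB1 was the higher in knockdown cells. CDH1, E-cadherin, had 23.8 and 22.5 RPKM, CTNNA1, alpha-catenin, had 80.1 and 84.6 RPKM, and CDH2, N-cadherin, had 1.72 and 3.84 RPKM (0.83). CTNND1 shares its locus with TMX2 and has no value of its own.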

How the data were processed

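RNA was measured in 1 wild type and 1 MYOCD knockdown library of A549 cells. The values are RPKM computed by the authors, per the name of the deposited table. Per the submitters' processing notes, the tools were TopHat2 (2.0.10) together with Cufflinks (2.2.1); these notes list both GRCh38.p12 and BDGP5, a fly build, without saying what each was used for. The sources used here do not state the annotation, filters or strand.

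Unnamed loci (1909 of 14952) and 21 lines whose names read as dates were left out, and values of repeated names were summed. Differences used a pseudocount of 1, for genes whose mean was 1 RPKM or more, and size rules of 2-fold and 1.5-fold, and no test was possible. RefSeq matched 94.1% of names. Coordinates and UTRs came from GENCODE release 29 (GRCh38).

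The 10 genes and the lists were chosen with earlier results of these data known. The genes named are the 10, the 3 highest and 3 lowest of each list and those past 1.5-fold, and the 3 genes nearest to KREMEN1. Other list genes, the neighbours, the comparison at like levels, and the UTR and promoter searches were added after values were seen. Python 3.11.15 with pandas 2.3.3, numpy 2.4.6 and matplotlib 3.10.9 was used. The scoring was tested on simulated data whose planted changes were larger than the difference of any of the 10 genes. That test does not show how smaller changes are scored.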

Additional observations from a re-analysis of the deposited data

How the results depend on the processing

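The alternatives were pseudocounts of 0.1 and 5, scaling to equal summed RPKM, to a median difference of 0 or to equal upper quartiles, other filters on low values, and protein-coding genes only. With no replicates, a value was taken as moved when it changed by more than 0.22, a robust standard deviation of the log2 differences of the coding genes. Of 178 recomputed values, 167 stayed within that or within 1.5-fold for counts. That share does not show robustness to scaling. The largest rescaling, to equal sums, had a log2 factor of -0.1990, smaller in size than 0.22. No log2 difference or list median could therefore count as moved by a rescaling. With equal sums the R-spondin median went from 0.1294 to -0.0557 and the destruction complex median from 0.0516 to -0.1332, and neither counted as moved. With a pseudocount of 5, KREMEN1 had a log2 difference of -0.69 and 0 of the 10 genes were at least 2-fold lower. In the other 4 alternatives KREMEN1 remained past 2-fold, down to -1.37. DKK1 ranged from -0.77 to -0.56, and FZD2 was the one gene of the 10 whose sign changed, from 0.01 to -0.18 with equal sums. Of the 88 other pathway genes, checked after seeing the data, 0 were past 2-fold either way, but 2 were at least 2-fold lower and 1 higher with a pseudocount of 0.1, 2 lower with equal sums and 1 lower with equal upper quartiles. Over all named genes, 88 were at least 2-fold lower and 78 higher. The lower count was 189 with a pseudocount of 0.1, 53 with a pseudocount of 5, 140 with equal sums and 43 with protein-coding genes only, where 17 were higher. With equal sums the higher count was 68. No paired analysis was possible because each group had 1 library. Depth is unknown, so the counting error of genes near the floor could not be set.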
